A study of Homo sapiens with 80 samples.

Results

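The 10 genes described here encode the proteins that tie the nucleus of a cell to its cytoskeleton: the cytoskeletal linkers DST (dystonin) and MACF1, the nesprins SYNE1 and SYNE2, the SUN proteins SUN1 and SUN2, the lamins LMNA, LMNB1 and LMNB2, and emerin (EMD). They were taken by symbol from the 60663 genes with a usable record in the count table, and all 10 were found there. The members were chosen by name with the log2 fold changes and calls of the same comparisons in view, so the values and calls below describe its members, and no p-value given for them is independent evidence.

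Lamins are intermediate filament proteins that form a meshwork, the nuclear lamina, on the inner face of the nuclear envelope. SUN proteins span the inner nuclear membrane and bind, in the space between both membranes, the nesprins that span the outer membrane; together they form the LINC complex, which links the lamina to the cytoskeleton. The largest nesprin isoforms bind actin filaments, MACF1 and DST are spectraplakins that connect actin with microtubules or intermediate filaments, and emerin is an inner membrane protein that binds lamins. Resting lymphocytes are known for a lamina dominated by B-type lamins, with little lamin A/C, the product of LMNA.

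The measurements were RNA-Seq counts of Jurkat T cells, a line derived from a human T lymphocyte leukemia and used here as 1 clone (E6-1), so that no untransformed T cells were included. In the 9 g experiment, groups of 6 libraries came from cells in a pipette centrifuge that ran at 9 g. Their names give the time under load, in seconds for hypg20s and hypg75s and in minutes for hypg3, hypg5, hypg7, hypg9, hypg15 and hypg60. Groups with less than 15 min of load were first held at 1 g, so that hold and load made up 15 min. Controls stayed at 1 g for 15 min (Ctrl, compared with all groups up to 15 min) or 60 min (Ctrl60, compared with hypg60). In the 300 g experiment, groups of 4 libraries were spun for 5 min at 300 g in a routine centrifuge and lysed 1 min (wait1min), 4 min (wait4min) or 15 min (wait15min) after the stop, or were held for 5 min at 42 °C (heat). Their control (Ctrl300g) was lysed directly, without a spin and without a wait, so that spin, handling and elapsed time cannot be told apart in these comparisons. All groups carried the same genotype. Nothing in the labels says that the libraries of a group came from separate cultures, so p-values measure the spread between these libraries, which may be technical.

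The 9 g experiment held 22634465 to 41893490 counts per library used, the 300 g experiment with heat 24417717 to 41220541. Library 75 of hypg15 held 0 counts on chromosomes 4 to 9, X, Y and MT and was left out, which leaves 79 of 80 libraries and 5 in hypg15. The hypg3 and hypg15 libraries are numbered 69 to 80, apart from the 1 to 48 of the other 9 g groups and their controls, and a separate preparation of these groups cannot be told apart from their treatment. The count table names the columns of wait1min as instant and those of wait4min as 1 min, and the sample titles were followed here. The columns of Ctrl60 are named in the count table as control with HEPES, a buffer, and whether hypg60 held it too is not given in the sources used here. All 10 T cell markers (CD3D, CD3E, CD3G, CD2, CD5, CD7, CD28, LCK, ZAP70 and LAT) lay at or above 1 CPM, while 3 of 4 B cell, 3 of 4 fibroblast, 2 of 4 monocyte and 3 of 3 erythroid markers lay under 0.1 CPM. The exceptions at or above 1 CPM were the B cell marker CD79A and the fibroblast marker COL1A1, and the summed level of the B cell list was 43.5 to 72.3 CPM at 9 g, 60.8 to 62.2 CPM in Ctrl300g and 30.7 to 32.2 CPM in wait1min, that of the fibroblast list 4.605 to 9.46 CPM at 9 g and 3.46 to 7.94 CPM at 300 g and heat. CPM are counts per 1000000 counts, scaled with TMM (trimmed mean of M-values) factors within an experiment. Log2 fold changes against a control come from fits of the compared groups alone, with TMM factors of their own. They can therefore differ from the ratio of these CPM. In bulk RNA, fewer cells of a type and less RNA per cell cannot be told apart.

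The members fall into a giant and a shorter class. On GRCh38, with exon lengths as the count table sums them, DST covers 48142 exon bases (chr6:56457987-56954830, minus strand), SYNE1 47523 (chr6:152121687-152637801, minus strand), MACF1 42738 (chr1:39081316-39487177, plus strand) and SYNE2 32377 (chr14:63761899-64226433, plus strand). The remaining 6 are shorter. SUN1 has 11850 exon bases (chr7:816615-896435, plus strand), LMNA 8141 (chr1:156082573-156140081, plus strand), SUN2 6489 (chr22:38734725-38794143, minus strand), LMNB2 5395 (chr19:2427638-2456959, minus strand), LMNB1 3633 (chr5:126776623-126837020, plus strand) and EMD 1995 (chrX:154379273-154381574, plus strand). The giant genes also have the lower GC content, from 41.58% in DST to 46.9% in MACF1, against 49.98% in LMNB1, 50.49% in SUN1 and 59.64% to 62.99% in EMD, SUN2, LMNA and LMNB2. Over the 10 genes, length and GC content were related with a Spearman rho of -0.72, so that longer members tended to have the lower GC content. The orders differed in part, as LMNB1 is short (3633 exon bases) but has 49.98% GC. SUN1 shares 15.5% of its exon bases with GET4 on the same strand, and read pairs in the shared bases are not assigned to either gene by the recorded counting command.

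Promoter sequences are shown for 2 members that rose at 300 g (DST, SYNE2) and 2 that fell (SUN2, LMNB2), so that the regions in front of genes with opposite values can be compared. They are taken from RefSeq on GRCh38.p14 and cover up to 250 bases before the most upstream transcript start listed for the gene, without bases that the count table lists as exon. For SYNE2 and SUN2 that start lies inside the gene as the count table draws it. Written 5′ to 3′ on the strand of the gene, they cover chr6:56954831-56955080 (DST, minus), chr14:63852754-63852982 (SYNE2, plus), chr22:38756001-38756248 (SUN2, minus) and chr19:2456960-2457209 (LMNB2, minus). Capitals mark the CCAAT box (CCAAT or its reverse complement ATTGG) and the GC box (GGGCGG or CCGCCC), and matches that overlap run together.
DST: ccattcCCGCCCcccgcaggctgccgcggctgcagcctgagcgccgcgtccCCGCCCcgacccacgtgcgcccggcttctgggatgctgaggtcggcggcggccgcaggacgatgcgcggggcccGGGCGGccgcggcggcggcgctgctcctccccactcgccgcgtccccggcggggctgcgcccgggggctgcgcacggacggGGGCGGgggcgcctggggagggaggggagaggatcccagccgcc
SYNE2: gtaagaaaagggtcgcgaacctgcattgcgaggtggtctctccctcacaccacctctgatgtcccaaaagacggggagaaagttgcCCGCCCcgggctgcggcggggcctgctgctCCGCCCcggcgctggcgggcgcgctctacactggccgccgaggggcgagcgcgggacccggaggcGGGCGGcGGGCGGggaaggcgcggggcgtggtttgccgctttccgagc
SUN2: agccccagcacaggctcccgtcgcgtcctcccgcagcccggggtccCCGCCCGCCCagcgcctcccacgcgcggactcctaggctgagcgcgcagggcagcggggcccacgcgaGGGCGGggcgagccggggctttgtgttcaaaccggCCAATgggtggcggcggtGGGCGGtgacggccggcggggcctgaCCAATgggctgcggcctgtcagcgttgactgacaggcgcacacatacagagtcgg
LMNB2: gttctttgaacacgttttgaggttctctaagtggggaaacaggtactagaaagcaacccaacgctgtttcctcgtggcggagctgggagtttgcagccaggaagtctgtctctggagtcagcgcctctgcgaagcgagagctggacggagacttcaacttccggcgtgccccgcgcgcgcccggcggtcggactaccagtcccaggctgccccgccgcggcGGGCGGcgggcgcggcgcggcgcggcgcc
The GC box letters occurred 4 times in each of the DST, SYNE2 and SUN2 stretches and 1 time in LMNB2, and the CCAAT letters 2 times in SUN2. The full 250 bases, exon bases included, were searched for the 9 members with a promoter entry (SUN1 had none). Of these, 6 held a GC box and 3 (SUN2, LMNA and EMD) a CCAAT box. Exons of the gene itself covered 250 of these bases in SYNE1, 105 in MACF1 and at most 22 in the others. Exons of another gene covered 143 in LMNA (MEX3A) and 114 in LMNB1 (LMNB1-DT). Over all 27305 listed promoters the shares were 42.2% and 33.0%.

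Per kilobase of exon, the B-type lamins were the most abundant members in unspun cells. In Ctrl, the mean level was 72.1 ± 3.80 CPM per kb for LMNB1 and 70.4 ± 1.76 for LMNB2 (SD, n = 6), and the libraries of both overlapped. EMD followed with 33.4 ± 1.61 and SUN2 with 29.4 ± 1.44 CPM per kb, again with overlapping libraries. All libraries were ordered without overlap below these: MACF1 at 8.76 ± 1.37, SUN1 at 4.87 ± 0.269, SYNE2 at 1.54 ± 0.601, SYNE1 at 0.490 ± 0.0410, LMNA at 0.266 ± 0.0415 and DST at 0.111 ± 0.0454 CPM per kb. LMNA thus stood at 0.00371 of LMNB1 per kilobase, and its counts ran from 44 to 130 per library, which limits the precision of its values. Ctrl300g had the same order except that LMNB2, at 105 ± 1.75 CPM per kb, lay above LMNB1, at 96.0 ± 2.09, in all 4 libraries.

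The largest log2 fold changes of the members were found after 300 g, where the 4 giant genes were called higher and 4 of the 6 shorter ones lower with TMM scaling. In wait1min against Ctrl300g, 5 members were called higher (DST, MACF1, SYNE1, SYNE2, SUN1) and 4 lower (SUN2, LMNA, LMNB2, EMD) at an adjusted p under 0.05 in edgeR's quasi-likelihood test, and LMNB1 was not called. Of all 17155 genes tested, 81.5% were called, 41.4% higher and 40.1% lower, and nothing is read from the members' share. With total counts only, 8527 genes were called higher and 5218 lower, against 7104 and 6882 with TMM factors, while the exon length offset gave 6327 and 7782 and the GC offset 5735 and 6661. The median log2 fold change was 2.24 for the 4 giant genes and -0.67 for the other 6, against 0.01 for all genes tested.

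**Figure D1:**
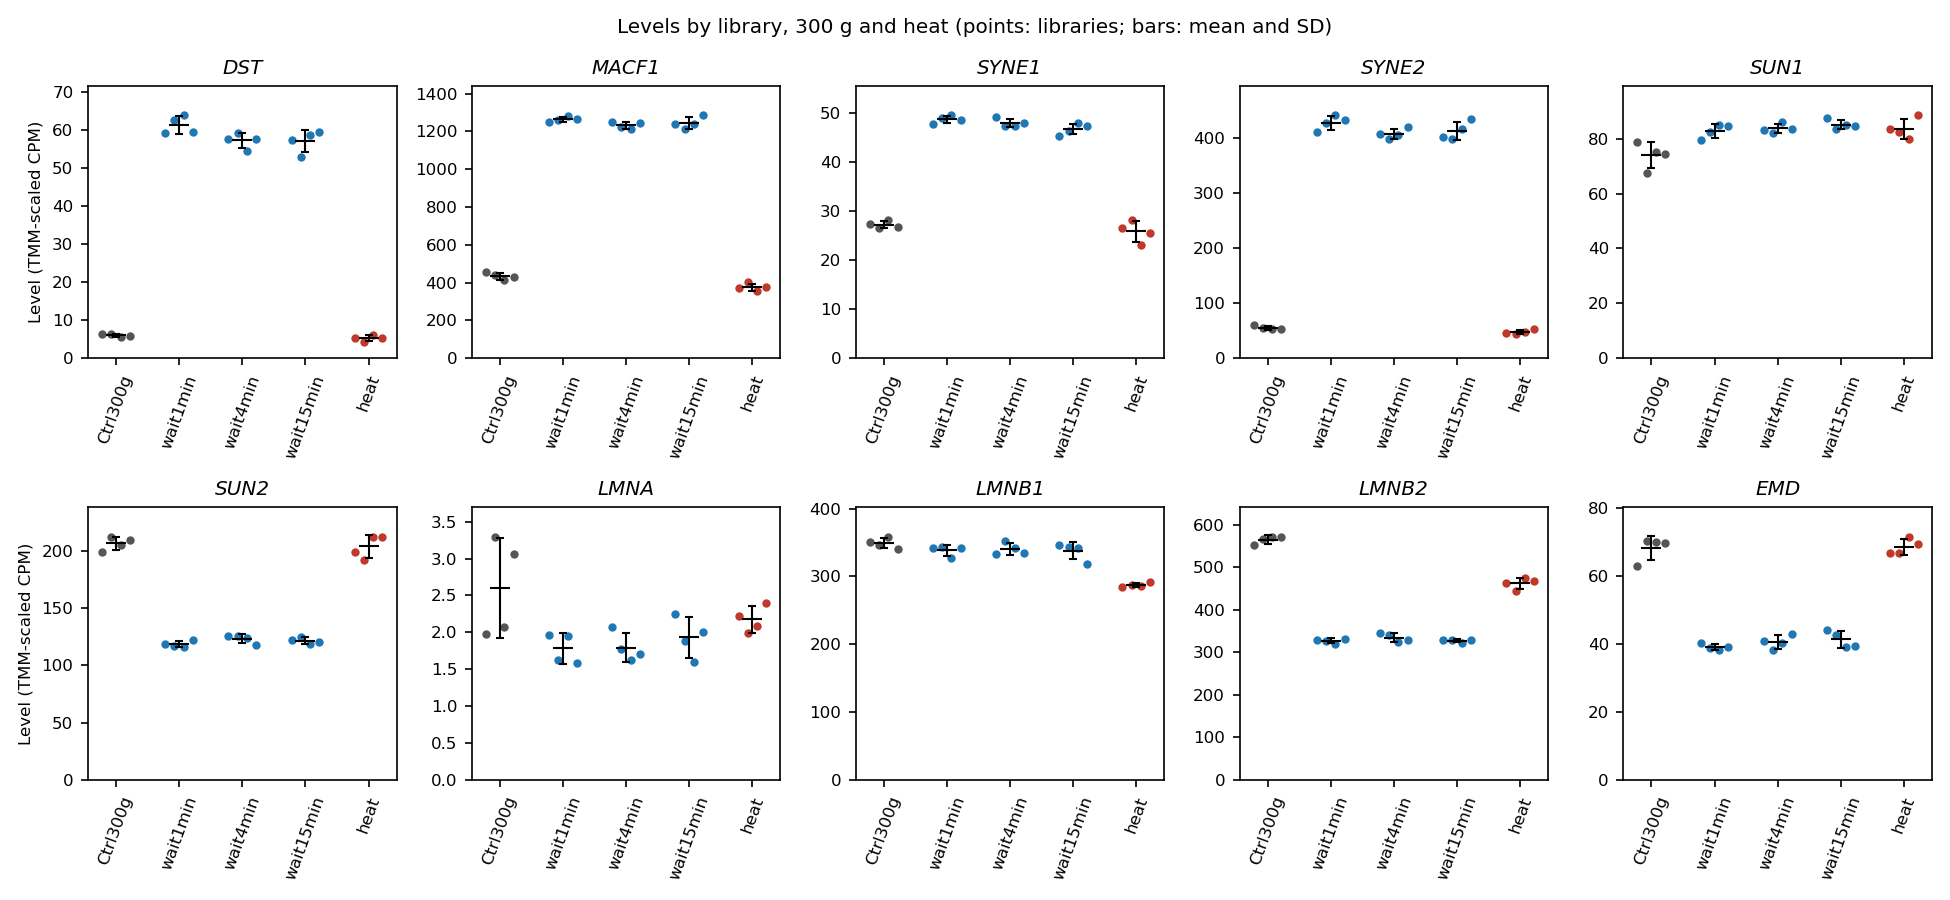
Levels of the 10 genes in the 300 g and heat experiment, in TMM-scaled CPM on an axis from 0, with 1 point per library (Ctrl300g grey, spun groups blue, heat red) and bars for the mean and SD of 4 libraries. The 12 spun libraries of DST lie between 52.8 and 63.8 CPM, those of Ctrl300g between 5.49 and 6.41 CPM.

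DST, which anchors intermediate filaments and microtubules depending on its isoform, was hardly expressed before the spin. Its level was 6.41, 6.24, 5.49 and 5.85 CPM in the 4 Ctrl300g libraries and 59.2, 62.6, 63.8 and 59.4 CPM in wait1min. All spun libraries lay far above all control libraries. In wait1min, all libraries lay above those of Ctrl300g for 39.3% of all genes tested and below them for 37.4%. The log2 fold change of DST was 3.35 ± 0.06 (SE), a 10.2-fold higher level (edgeR quasi-likelihood test, Benjamini-Hochberg adjusted p = 1.55e-16). MACF1, the microtubule and actin crosslinker and the most abundant giant member, lay at 457, 439.8, 412 and 429 CPM in Ctrl300g and at 1252, 1259, 1284 and 1265 CPM in wait1min. It rose 2.89-fold (log2 fold change 1.53 ± 0.04, edgeR adjusted p = 9.03e-16). The DST level relative to MACF1 per kilobase was 0.0122 ± 0.000349 in Ctrl300g and 0.0430 ± 0.00136 in wait1min (SD, n = 4).

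Both nesprins were called higher with TMM scaling, SYNE2 by the larger value, while SYNE1 turned to -0.35 with an offset for exon length. SYNE2, encoding nesprin-2, had 60.9, 54.3, 52.2 and 53.8 CPM in Ctrl300g and 412, 428, 442 and 433 CPM in wait1min, a 7.71-fold difference (log2 fold change 2.95 ± 0.05, edgeR adjusted p = 8.18e-17). SYNE1, encoding nesprin-1, had 27.4, 26.5, 28.2 and 26.8 CPM before and 47.6, 48.8, 49.5 and 48.6 CPM after the spin, a 1.77-fold difference (log2 0.83 ± 0.04, edgeR adjusted p = 6.81e-12). Groups did not overlap for either gene, which held in the higher direction for 39.3% of all genes tested. Per kilobase, SYNE2 stood at 2.99 ± 0.222 times the level of SYNE1 in Ctrl300g and at 12.9 ± 0.201 times in wait1min (SD, n = 4).

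Of the inner membrane partners of the nesprins, SUN2 was called lower and SUN1 higher with TMM scaling, while SUN1 turned to -0.40 with an offset for exon length. SUN2 fell from 199, 213, 206 and 209.7 CPM to 119, 117, 116 and 122 CPM, with a log2 fold change of -0.81 ± 0.04 (edgeR adjusted p = 9.71e-13). SUN1 went from 78.9, 67.7, 75.3 and 74.5 CPM to 79.4, 82.3, 85.0 and 84.5 CPM, a log2 difference of 0.15 ± 0.05 (edgeR adjusted p = 0.00553). The SUN1 groups were separated by less than 1 CPM, whereas the SUN2 groups lay far apart. Of all genes tested, 39.3% had all libraries higher and 37.4% all libraries lower in wait1min. SUN1 relative to SUN2 per kilobase went from 0.197 ± 0.0175 to 0.382 ± 0.0136.

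Among the lamins, LMNB2 and LMNA were called lower with TMM scaling and LMNB1 was not called. LMNB2 had 551, 566, 572 and 570.4 CPM in Ctrl300g and 329, 326, 319 and 332 CPM in wait1min, a level 1.74-fold lower (log2 -0.80 ± 0.03, edgeR adjusted p = 4.19e-13). LMNB1 had 350.2, 346, 359 and 341 CPM before and 343, 343, 327 and 342 CPM after the spin, with overlapping groups (log2 -0.05 ± 0.03, edgeR adjusted p = 0.166). The order of both B-type lamins per kilobase was therefore turned, from 0.917 ± 0.0254 to 1.54 ± 0.0178 of LMNB1 over LMNB2. LMNA was called lower at 1.97, 1.62, 1.95 and 1.59 CPM against 1.97, 3.30, 2.07 and 3.06 CPM (log2 -0.54 ± 0.18, edgeR adjusted p = 0.0109). Its control libraries spread widely, the lowest of them (1.972 CPM) only just exceeded the highest spun library (1.968 CPM), and without library 50 of Ctrl300g the call was lost (log2 -0.40, edgeR adjusted p = 0.0547). EMD, the emerin gene, fell from 63.0, 70.1, 70.1 and 69.8 CPM to 40.2, 38.8, 38.1 and 39.2 CPM, a log2 fold change of -0.81 ± 0.05 (edgeR adjusted p = 2.06e-11).

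The longer waits gave close to the same values, and all 3 spun groups were compared with the same 4 control libraries. In wait4min, 9 members were called (82.2% of all genes tested, 41.7% higher and 40.6% lower), and in wait15min again 9 (82.3%, 41.8% higher and 40.5% lower). In wait15min the log2 fold change was 3.26 for DST, 2.90 for SYNE2, 1.52 for MACF1, 0.77 for SYNE1 and 0.20 for SUN1. It was -0.79 for LMNB2, -0.77 for SUN2, -0.73 for EMD and -0.05 for LMNB1. LMNA in wait15min, at -0.42 ± 0.18, lost its call without library 50 (-0.29), 52 (-0.33), 62 (-0.41), 63 (-0.33) or 64 (-0.42). Between wait15min and wait1min, 0 members were called by edgeR, with 1 (DST) at an unadjusted p under 0.05 and 0 by DESeq2, while 0.149% of all genes tested were called (0.0115% higher and 0.138% lower). The largest of these differences was 0.12 ± 0.16 in LMNA, and DST differed by -0.10 ± 0.04.

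**Figure D2:**
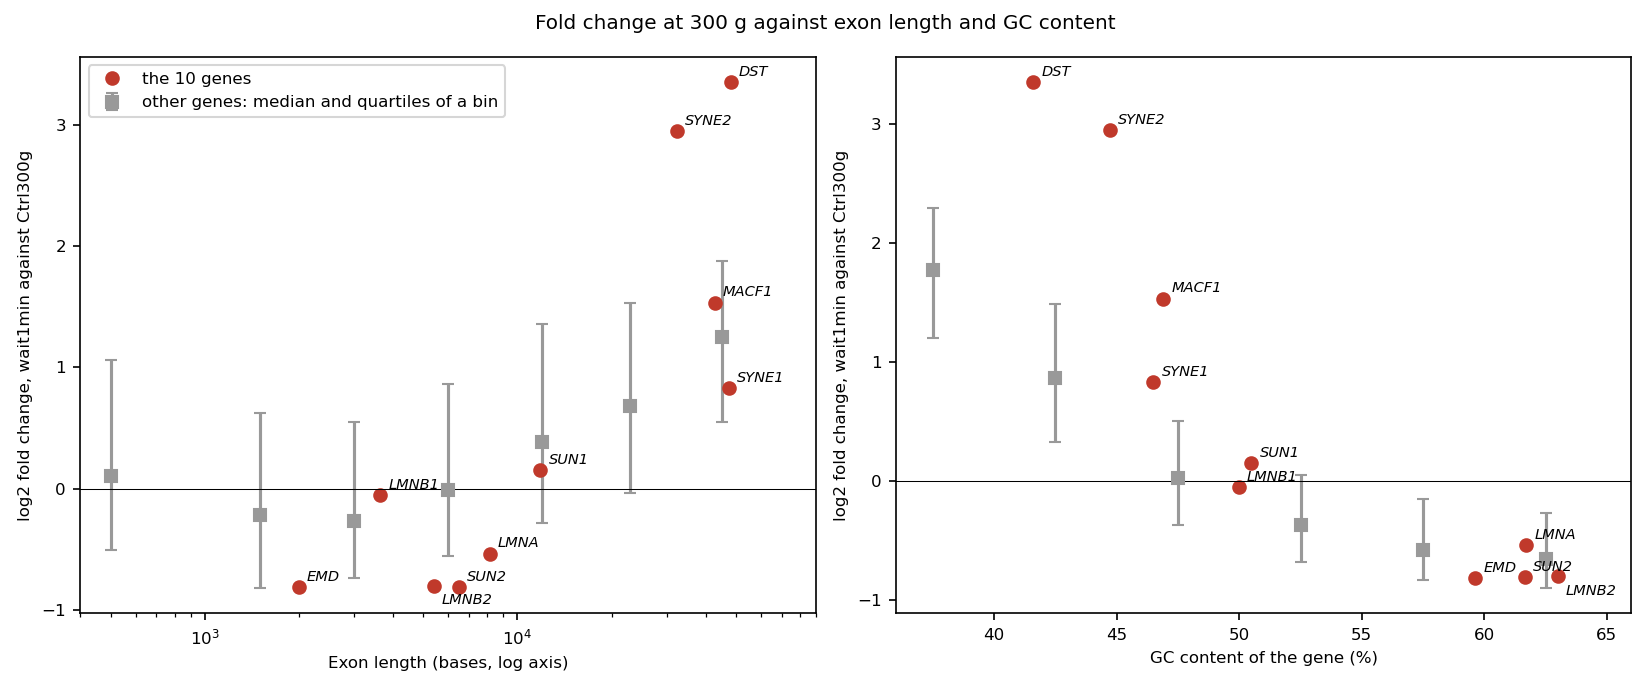
log2 fold change of wait1min against Ctrl300g for the 10 genes (red points) against exon length (left, log axis, bases) and GC content (right, percent), with grey squares and bars for the median and quartiles of all other genes in a bin. DST, at 3.35, and SYNE2, at 2.95, lie above the upper quartile of the other long genes (1.88), and the 4 members with the highest GC content lie between -0.81 and -0.54.

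Length and base composition moved with these values throughout the transcriptome. The 49 other genes of at least 30000 exon bases had a median log2 fold change of 1.25 in wait1min (quartiles 0.55 and 1.88), and 85.7% of them were called higher and 6.12% lower. MACF1 and SYNE1 thus lay within the quartiles of the other giant genes, and DST and SYNE2 above them. Genes with a GC content under 40% had a median of 1.78 (1885 genes, 93.2% called higher), and genes of at least 60% a median of -0.66 (2414 genes, 73.9% called lower). Over all genes, the Spearman rho of the log2 fold change was -0.70 with GC content (16918 genes) and 0.16 with exon length (17155 genes). Over the 10 members it was -0.87 and 0.87, as a description of points that share libraries and depth. The share of all counts on genes under 40% GC was 2.44% to 2.97% in Ctrl300g, 9.28% to 10.1% in the spun libraries and 2.48% to 2.80% after heat. The mitochondrial share of counts was 2.03% to 2.12% in Ctrl300g, 2.23% to 2.48% in the spun libraries and 2.33% to 2.47% after heat, and its part in the members' values was not tested. The summed level of the 10 T cell markers was 3880 to 3976 CPM in Ctrl300g and 2442 to 2558 CPM in wait1min, and its part in the members' values was not tested.

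**Figure D3:**
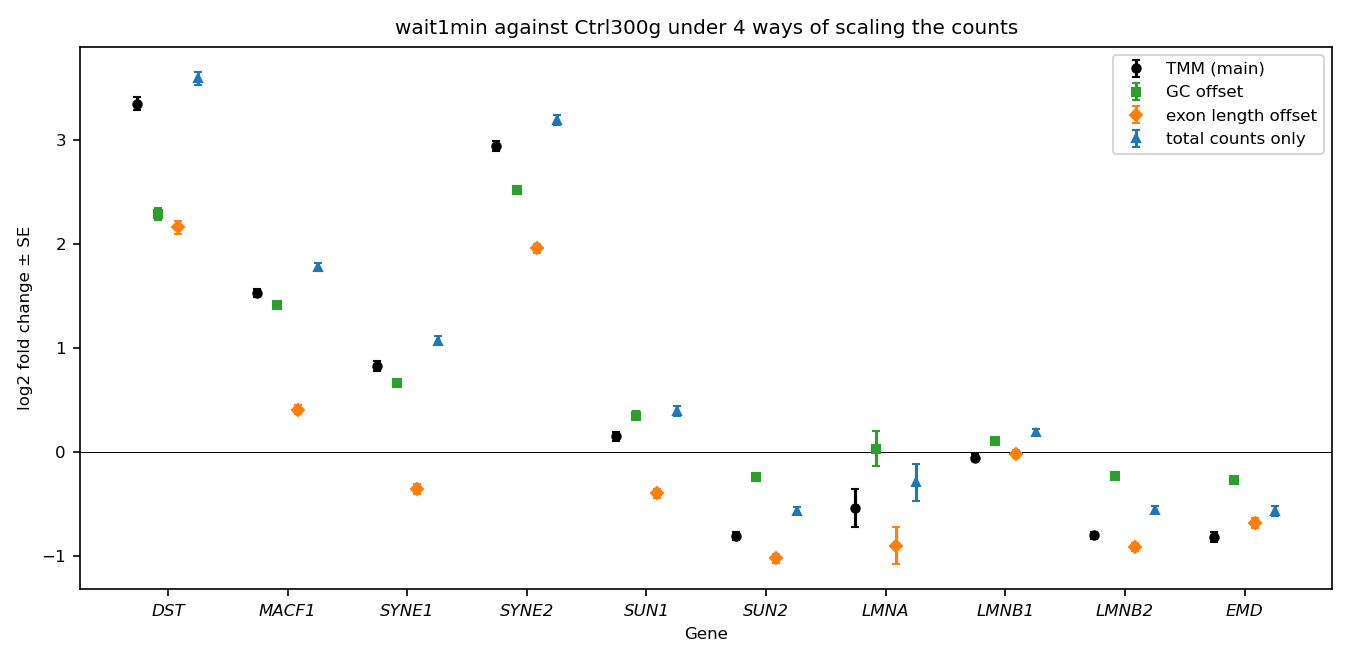
log2 fold change ± SE of the 10 genes in wait1min against Ctrl300g under 4 ways of scaling the counts: TMM factors (black), an offset by GC content (green), an offset by exon length (orange) and total counts only (blue). DST stays between 2.16 and 3.60 and SYNE2 between 1.96 and 3.19, while SYNE1, SUN1, LMNA and LMNB1 change their sign.

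Offsets for GC content or exon length were added to show each value with the trend along that property taken out. An offset takes out the whole trend, whatever its source, and how much of a value depended on the property was not tested. DST rose under all 4 scalings, by 2.29 with the GC offset, 2.16 with the length offset and 3.60 with total counts only, and SYNE2 by 2.52, 1.96 and 3.19. MACF1 kept 1.42 with the GC offset and 0.41 with the length offset. SYNE1 turned from 0.83 to -0.35 and SUN1 from 0.15 to -0.40 with the length offset, so that no direction is given for these 2 independent of the scaling. SUN2, LMNB2 and EMD kept their sign, with -0.24, -0.23 and -0.27 under the GC offset. LMNA lost its call under the GC offset (0.032, edgeR adjusted p = 0.872) and with total counts only (-0.29, edgeR adjusted p = 0.144). LMNB1 was called higher under the GC offset (0.11, edgeR adjusted p = 0.00337) and with total counts only (0.19, edgeR adjusted p = 1.4e-05), and likewise in wait4min and wait15min. These values stand against a median of all genes that moved by 0.24 with total counts only and by -0.14 with the length offset, and the shift with total counts only exceeded the LMNB1 value of 0.19.

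At 9 g the called members moved by at most 0.47 on the log2 scale with TMM factors, the filter and all libraries used. Against Ctrl, 2 members were called in hypg20s (15.2% of all genes tested, 6.66% higher and 8.58% lower), 2 in hypg75s (31.3%, 16.8% higher and 14.4% lower) and 5 in hypg3 (41.3%, 16.9% higher and 24.4% lower). In hypg5, 0 members were called by edgeR (6.02% of all genes, 4.33% higher and 1.69% lower), with 1 at an unadjusted p under 0.05 and 0 called by DESeq2. In hypg7, 2 were called (12.8%, 6.64% higher and 6.19% lower). In hypg9, 0 were called by edgeR (19.6%, 11.3% higher and 8.34% lower), with 3 at an unadjusted p under 0.05 and 2 called by DESeq2. In hypg15, 6 were called (53.4%, 25.4% higher and 27.9% lower), and in hypg60 against Ctrl60, 2 (30.1%, 17.1% higher and 13% lower). In 6 groups another scaling moved the share of higher calls among the genes called by more than 10 percentage points. With total counts only it went from 1091 higher and 1017 lower to 1720 and 836 in hypg7, from 1849 and 1366 to 2531 and 908 in hypg9, and from 2791 and 2125 to 3364 and 1471 in hypg60. With the GC offset it went from 1074 and 1384 to 952 and 745 in hypg20s, from 705 and 276 to 977 and 1049 in hypg5, and to 2168 and 2462 in hypg9. With the exon length offset it went from 2740 and 3945 to 3671 and 3265 in hypg3. The majority also turned in hypg7, to 998 higher and 1115 lower with RLE factors, 936 and 1086 with the exon length offset and 1479 and 1948 with the GC offset, in hypg75s, from 2738 higher and 2348 lower to 1882 and 2031 with the GC offset, and in hypg15, from 4040 and 4437 to 4483 and 4138 with the exon length offset. The 7 groups up to 15 min share the Ctrl libraries. Ctrl60 against Ctrl gave 0 called members in edgeR, 0 at an unadjusted p under 0.05 and 0 in DESeq2, with 0.0124% of all genes called (0.00621% higher and 0.00621% lower).

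**Figure D4:**
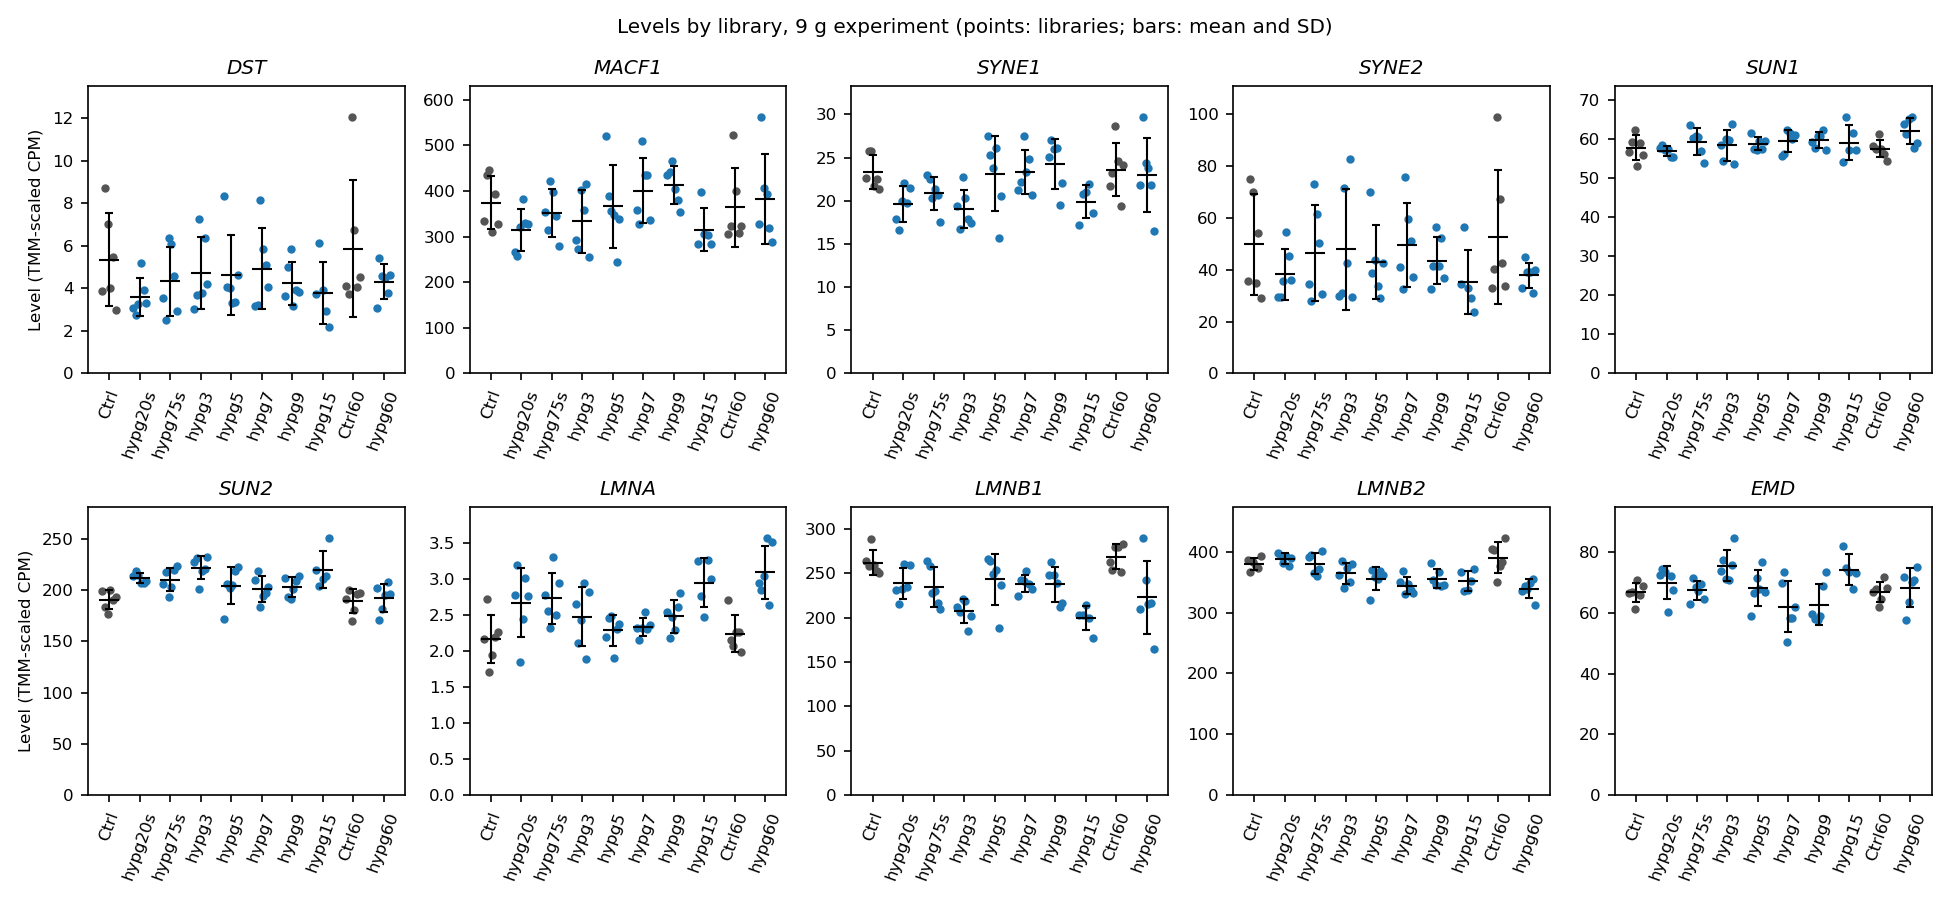
Levels of the 10 genes in the 9 g experiment, in TMM-scaled CPM on an axis from 0, with 1 point per library (1 g controls grey, 9 g blue) and bars for the mean and SD of 6 libraries (5 in hypg15). LMNB1 lies lower in all libraries of hypg3 and hypg15 than in Ctrl, whereas DST and SYNE2 scatter widely within most groups. In hypg60, SYNE2 scatters less, from 31.1 to 44.7 CPM.

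LMNB1 was called lower in 3 of 8 comparisons at 9 g. Its level ran from 250.4 over a median of 259 to 288 CPM in Ctrl, from 185 over 209 to 221 CPM in hypg3, and was 203, 203, 214, 199.8 and 177 CPM in hypg15. No library of hypg3 or hypg15 reached the lowest Ctrl library, and the log2 fold change was -0.36 ± 0.05 in hypg3 (edgeR adjusted p = 5.88e-05) and -0.40 ± 0.05 in hypg15 (edgeR adjusted p = 2.65e-05). Such separation, with all libraries lower, was found for 12.4% of all genes in hypg3 and 18% in hypg15. In hypg7 LMNB1 was called lower at -0.14 ± 0.04 with overlapping libraries, a call lost without a filter, with total counts only, with the exon length offset and with all groups in 1 model, and in the other groups it was not called, at -0.26 to -0.11. In hypg60 its 6 libraries spread from 164 to 289.5 CPM around a median of 216 CPM, against 252 to 283 CPM in Ctrl60 (log2 -0.26 ± 0.10, edgeR adjusted p = 0.0677).

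LMNB2 was called lower in 4 of 8 comparisons, by at most 0.19 on the log2 scale. It ran from 367 over 379.8 to 394 CPM in Ctrl, from 330.2 over 342 to 369 CPM in hypg7 (log2 -0.14 ± 0.04, edgeR adjusted p = 0.0175), and from 312 over 342 to 356 CPM in hypg60 against 350.2 to 422 CPM in Ctrl60 (log2 -0.19 ± 0.05, edgeR adjusted p = 0.0133). The hypg7 call was lost without a filter and the hypg60 call with total counts only. The values of -0.08 ± 0.03 in hypg3 (edgeR adjusted p = 0.0495) and -0.11 ± 0.04 in hypg15 (edgeR adjusted p = 0.0322) were also called, but the hypg3 call was lost with RLE factors, DESeq2, all groups in 1 model, the exon length offset or no filter, and the hypg15 call when any of the Ctrl libraries (-0.10 to -0.09) or library 77 or 78 (-0.10) was left out and with the exon length offset. LMNB1 relative to LMNB2 per kilobase was 1.02 ± 0.0571 in Ctrl, 0.846 ± 0.0708 in hypg3 and 0.843 ± 0.0884 in hypg15.

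LMNA, the gene of the A-type lamins, was low in all groups and was called higher in 3 of 8. It ran from 1.71 over 2.17 to 2.72 CPM in Ctrl, from 2.31 over 2.66 to 3.31 CPM in hypg75s, and was 3.25, 2.76, 2.46, 3.26 and 3.00 CPM in hypg15. In hypg60 it ran from 2.64 over 2.99 to 3.56 CPM against 1.99 to 2.71 CPM in Ctrl60. The log2 fold change was 0.36 ± 0.12 in hypg75s (edgeR adjusted p = 0.0301), 0.44 ± 0.13 in hypg15 (edgeR adjusted p = 0.00828) and 0.47 ± 0.11 in hypg60 (edgeR adjusted p = 0.00492), and the libraries of each pair of groups overlapped. The hypg75s call was lost without a filter. All 8 comparisons had a value above 0, the uncalled ones between 0.08 and 0.31. LMNA relative to LMNB1 per kilobase was 0.00371 ± 0.00069 in Ctrl, 0.00664 ± 0.00100 in hypg15 and 0.00644 ± 0.00182 in hypg60, against 0.00374 ± 0.000527 in Ctrl60.

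With TMM scaling, SUN2 was called higher at 20 s, 75 s, 3 min and 15 min, and with the GC offset at none of these times. With all groups in 1 model the 20 s call was lost. It ran from 177 over 192 to 200.2 CPM in Ctrl, from 207 over 211 to 219 CPM in hypg20s, and from 202 over 224 to 232 CPM in hypg3. Its libraries in hypg20s, hypg3 and hypg15 all lay above the highest Ctrl library, which 4.06%, 8.65% and 15% of all genes did in these groups. The log2 fold change was 0.15 ± 0.03 in hypg20s (edgeR adjusted p = 0.0101), 0.16 ± 0.04 in hypg75s (edgeR adjusted p = 0.00398), 0.19 ± 0.04 in hypg3 (edgeR adjusted p = 0.00108) and 0.20 ± 0.05 in hypg15 (edgeR adjusted p = 0.00561). SUN1 was called in none of the 8 comparisons, with values from -0.03 to 0.12.

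EMD was called higher in hypg3 and hypg15. Its level ran from 61.3 over 66.7 to 70.8 CPM in Ctrl, from 70.7 over 74.7 to 84.5 CPM in hypg3, and was 82.0, 74.7, 73.5, 67.7 and 73.2 CPM in hypg15. The groups overlapped, and the log2 fold change was 0.15 ± 0.04 in hypg3 (edgeR adjusted p = 0.0105) and 0.15 ± 0.05 in hypg15 (edgeR adjusted p = 0.0228). Without library 76 the hypg15 call was lost (log2 0.11, edgeR adjusted p = 0.0816), as it was with all groups in 1 model, and both calls were lost without a filter.

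Of the giant genes, only SYNE1 was called at 9 g with all libraries used, TMM factors and the filter, lower in hypg20s, hypg3 and hypg15. It ran from 21.4 over 22.6 to 25.7 CPM in Ctrl, from 16.6 over 19.8 to 22.1 CPM in hypg20s (log2 -0.25 ± 0.08, edgeR adjusted p = 0.0369, a call lost with total counts only, with the exon length offset and with all groups in 1 model), and from 16.8 over 18.6 to 22.7 CPM in hypg3 (log2 -0.31 ± 0.08, edgeR adjusted p = 0.00727). In hypg15 its value was -0.23 ± 0.08 (edgeR adjusted p = 0.0258), and the call was lost without Ctrl library 2 (-0.18) or 3 (-0.18) or hypg15 library 76 (-0.18) or 80 (-0.21), and with all groups in 1 model. DST and SYNE2 had a larger spread. Their values lay further below 0 than those of SYNE1 in hypg20s and hypg15, but not in hypg3. DST ran from 2.96 over 4.73 to 8.73 CPM in Ctrl and SYNE2 from 29.2 over 44.8 to 74.9 CPM, and the 8 log2 differences at 9 g lay between -0.56 and -0.12 for DST, with SE of 0.23 to 0.28, and between -0.50 and -0.01 for SYNE2, with SE of 0.21 to 0.30. MACF1 ran from 310.2 over 364 to 446 CPM in Ctrl and had values from -0.26 to 0.15. In hypg15, library 77 stood apart in these 3 genes, with 6.12 CPM of DST, 397 CPM of MACF1 and 56.3 CPM of SYNE2 against at most 3.94, 306 and 34.3 CPM in the other 4. Without it all 3 were called lower, DST at -0.74, MACF1 at -0.35 and SYNE2 at -0.74. MACF1 was also called without Ctrl library 4 (-0.28) or 6 (-0.29), and SYNE2 without Ctrl library 6 (-0.61). Without a filter, 8 members were called in hypg15, 2 higher and 6 lower, beside 3287 higher and 4563 lower of 33394 genes tested.

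In the 9 g experiment, libraries of 1 group varied together in DST, MACF1 and SYNE2. After removing group means, the correlation over the 59 libraries of the 9 g experiment was 0.93 between DST and SYNE2, 0.83 between MACF1 and SYNE2 and 0.81 between DST and MACF1. SYNE1 had 0.79 with MACF1, 0.48 with DST and 0.44 with SYNE2, and MACF1 had -0.83 with SUN2. Over the 20 libraries of the 300 g experiment the values were 0.47 for DST and SYNE2, 0.31 for MACF1 and SYNE2, -0.21 for DST and MACF1, and 0.59, -0.69 and -0.13 for SYNE1 with MACF1, DST and SYNE2. These points share depth, scaling and preparation. MACF1 was related by 0.95 to the share of counts on the 68 other genes of at least 30000 exon bases and by 0.93 to the share on genes under 40% GC, and SUN2 by -0.83 and -0.86. The pair of SYNE1 and LMNB1 had 0.84, and LMNA stayed between -0.22 and 0.13 with each other member. The share of counts on genes under 40% GC was 2.29% to 3.44% in Ctrl and 1.41% to 2.15% in hypg15. The mitochondrial share of counts was 1.33% to 1.60% in Ctrl, 1.49% to 1.73% in hypg20s, 1.67% to 3.32% in the longer groups up to 15 min, 1.16% to 1.38% in Ctrl60 and 2.12% to 2.67% in hypg60. The part of both shares in the members' values was not tested.

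GC content moved with the 9 g values in the direction opposite to 300 g. The Spearman rho of the log2 fold change with GC content over all genes was 0.60 in hypg20s, 0.68 in hypg3, 0.10 in hypg7, 0.68 in hypg15 and 0.39 in hypg60. With the GC offset, SUN2 had 0.065 in hypg20s and 0.034 in hypg75s, LMNA had 0.24 in hypg75s, and none of these was called. SUN2 had 0.033 in hypg3 and -0.035 in hypg15, EMD 0.010 and -0.060, SYNE1 -0.17 and -0.095, and LMNA 0.21 in hypg15, and none of these was called. LMNB1 kept -0.34 in hypg3 and -0.41 in hypg15 with the GC offset, and LMNB2 came to -0.26 and -0.37, all called. In hypg75s LMNB1 (-0.17) and LMNB2 (-0.12) were called lower with the GC offset, in place of SUN2 and LMNA higher. DST and SYNE2, not called at 3 min, turned to 0.16 and 0.14 in hypg3. So 2 members were called in hypg3 and 2 in hypg15 under this offset, in place of 5 and 6, and the directions of SUN2 and EMD in hypg15 flipped with it. Calls over all genes went from 2740 higher and 3945 lower to 1849 and 2118 in hypg3, and from 4040 and 4437 to 2842 and 2971 in hypg15. With the exon length offset, LMNB2 had -0.013 in hypg3 (edgeR adjusted p = 0.847) and -0.044 in hypg15 (edgeR adjusted p = 0.498), SYNE1 -0.16 and -0.071, and EMD 0.096 in hypg15, and none of these was called, whereas LMNB1 kept -0.31 and -0.37, both called.

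**Figure D5:**
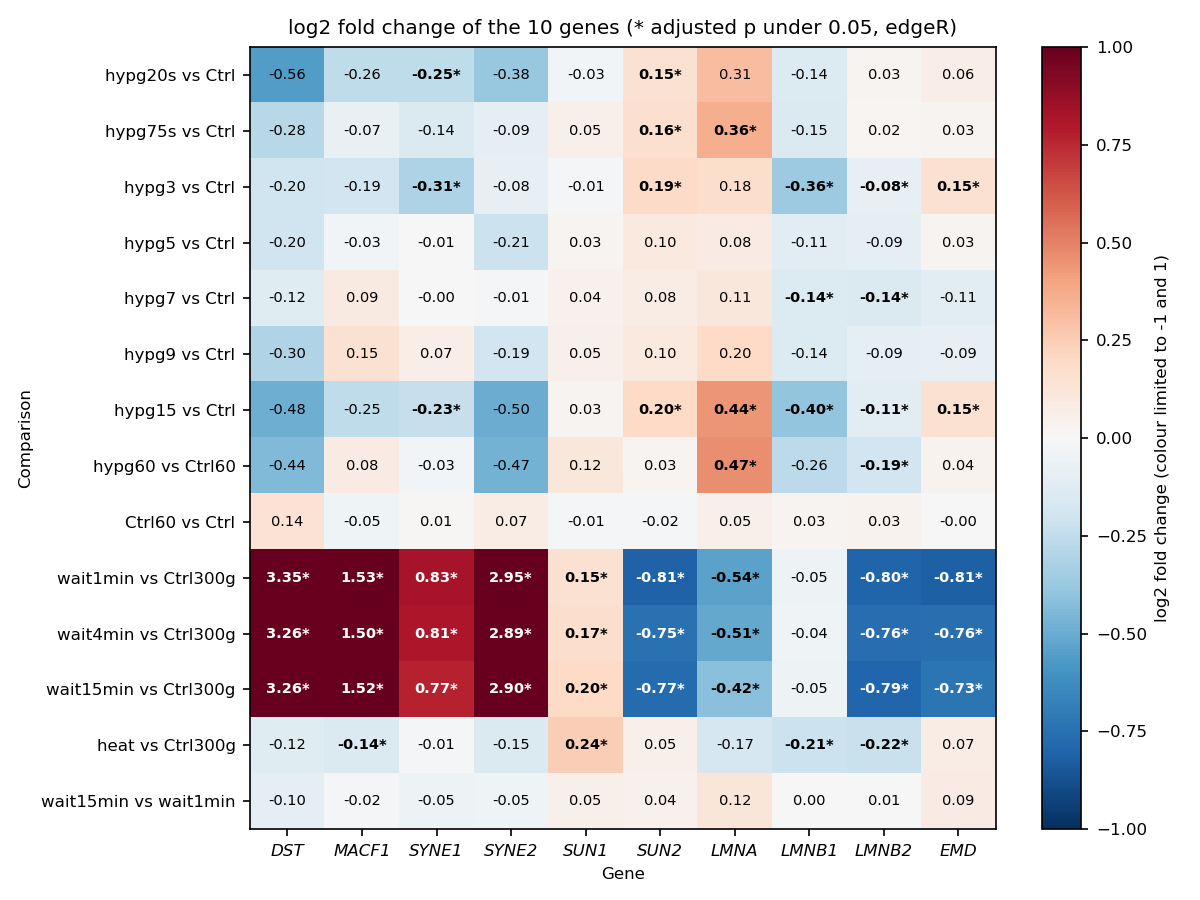
log2 fold change of the 10 genes (columns) in 14 comparisons (rows), with the value in each cell, an asterisk for an adjusted p under 0.05 in edgeR and colour limited to values between -1 and 1. The 300 g comparisons stand out with DST at 3.26 to 3.35 and SYNE2 at 2.89 to 2.95, whereas the largest value of a called member at 9 g is 0.47, LMNA in hypg60.

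After heat shock both B-type lamins fell and SUN1 rose. In heat against Ctrl300g, 4 members were called, 1 higher and 3 lower (20.8% of all genes tested, 10.6% higher and 10.2% lower). Over all genes this split of 1770 higher and 1691 lower became 2252 and 1173 with total counts only, and 1461 and 4027 with all groups in 1 model. LMNB1 lay at 284, 287, 286 and 292 CPM and LMNB2 at 462, 443, 475 and 466 CPM, all below Ctrl300g, with log2 fold changes of -0.21 ± 0.03 (edgeR adjusted p = 4.29e-05) and -0.22 ± 0.03 (edgeR adjusted p = 2.86e-05). All 4 heat libraries lay below the control libraries for 20.4% of all genes, and above them for 7.66%. The CPM and these shares use TMM factors over all 5 groups of the experiment, the log2 fold changes those of heat and Ctrl300g alone. For SUN2 they differed in direction, with a mean of 204 CPM after heat and 207 CPM in Ctrl300g, against a log2 fold change of 0.05. SUN1 had 83.6, 82.5, 79.9 and 88.6 CPM, above all control libraries (log2 0.24 ± 0.04, edgeR adjusted p = 0.00102). MACF1 fell to 371, 401, 354 and 374 CPM (log2 -0.14 ± 0.04, edgeR adjusted p = 0.0283), a call lost without library 49 (-0.12), 50 (-0.14), 65 (-0.15), 67 (-0.11) or 68 (-0.13). DST at -0.12 ± 0.10, SYNE1 at -0.01 ± 0.06, SYNE2 at -0.15 ± 0.06, SUN2 at 0.05 ± 0.03, LMNA at -0.17 ± 0.17 and EMD at 0.07 ± 0.04 were not called, and SYNE2 was called at -0.20 without library 68.

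The effects of the treatments were also compared with each other. The effect of wait1min, relative to Ctrl300g, minus that of hypg5, relative to Ctrl, was called for 9 members, among 68.4% of all genes (33.8% higher and 34.6% lower). DST differed by 3.57 ± 0.36, SYNE2 by 3.19 ± 0.38, MACF1 by 1.59 ± 0.20 and SYNE1 by 0.87 ± 0.14 on the log2 scale, and SUN2 by -0.88 ± 0.08, EMD by -0.82 ± 0.10, LMNB2 by -0.68 ± 0.06 and LMNA by -0.60 ± 0.19. With the exon length offset SYNE1 turned to -0.33 and SUN1 to -0.44 in this difference, and with the GC offset LMNB2 and LMNA lost their calls, leaving 7. Calls over all genes went from 6575 higher and 6739 lower to 4521 and 6160 with the GC offset. LMNB1 differed by 0.08 ± 0.10 and was not called, and the SUN1 call (0.15 ± 0.06) was lost without any 1 library of Ctrl300g (49 with 0.08, 50 with 0.02, 51 with 0.06, 52 with 0.06). Both spins lasted 5 min, but vessel, cell density, centrifuge and control handling differed too and cannot be told apart from the g level. Heat against wait1min was called for 8 members (80.6% of all genes, 38.5% higher and 42% lower). Heat minus wait1min was -3.55 ± 0.07 for DST, -3.17 ± 0.05 for SYNE2, -1.75 ± 0.03 for MACF1, -0.91 ± 0.05 for SYNE1 and -0.24 ± 0.03 for LMNB1, and 0.78 ± 0.03 for SUN2, 0.81 ± 0.05 for EMD and 0.50 ± 0.03 for LMNB2, all adjusted over all genes in edgeR and called. Of these, SYNE1 turned to 0.32 with the exon length offset, and LMNB2 turned to -0.054 and lost its call with the GC offset. SUN1 (0.01 ± 0.04) and LMNA (0.29 ± 0.16) were not called between heat and wait1min. The effect of hypg60 minus that of hypg3 was called for 0 members by edgeR and 0 by DESeq2, with 2 (SUN2 and LMNB2) at an unadjusted p under 0.05 and 6.83% of all genes called (4.46% higher and 2.37% lower).

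Other genes of the same structures were followed by list. Of 12 other LINC complex genes, 9 were tested, of which 4 were called higher and 4 lower in wait1min (41.4% and 40.1% of all genes), 3 higher and 4 lower in hypg15 (25.4% and 27.9%), and 1 higher and 2 lower after heat (10.6% and 10.2%). Their median log2 fold change in wait1min was -0.16, against 0.01 for all genes. IRAG2, a lymphoid protein of the endoplasmic reticulum and outer nuclear membrane with a KASH domain like the nesprins, rose at 300 g by 1.26 to 1.36 on the log2 scale and lay between -0.70 and -0.24 at 9 g, called lower in 3 of 8 comparisons. TOR1AIP2, an activator of the torsin ATPases, rose by 1.22 to 1.24 at 300 g. SYNE4, encoding nesprin-4, rose after heat (1.18 ± 0.20, edgeR adjusted p = 0.000572) and was also called higher in hypg15 (0.65 ± 0.25, edgeR adjusted p = 0.0404) and hypg60 (1.35 ± 0.26, edgeR adjusted p = 0.00138), and SYNE3 had -0.21 ± 0.08 after heat and was not called.

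Of 16 other genes of the lamina and inner nuclear membrane, all were tested, and 9 were called higher and 6 lower in wait1min (41.4% and 40.1% of all genes), with a median of 0.44. At 9 g, 1 was called higher and 5 lower in hypg20s (6.66% and 8.58% of all genes), 1 and 5 in hypg75s (16.8% and 14.4%), 1 and 8 in hypg3 (16.9% and 24.4%), 0 and 0 in hypg5 (4.33% and 1.69%), 0 and 1 in hypg7 (6.64% and 6.19%), 1 and 1 in hypg9 (11.3% and 8.34%), 2 and 9 in hypg15 (25.4% and 27.9%), and 1 and 3 in hypg60 (17.1% and 13%). The medians were -0.24 in hypg3 and -0.21 in hypg15, against -0.016 and 0.017 for all genes. LBR, the lamin B receptor, was called lower in 4 of 8 comparisons at 9 g and lay at -0.78 ± 0.07 in hypg15 (edgeR adjusted p = 2.65e-06). ZMPSTE24, the protease that matures prelamin A, was called lower in 5 of 8 at 9 g, at -0.70 ± 0.07 in hypg15, and higher at 300 g, by 1.02 to 1.17. CBX3, a heterochromatin protein, rose by 1.75 to 1.90 at 300 g. After heat, CBX5 fell by 0.40 ± 0.05 and FNTA, a subunit of the enzyme that farnesylates lamins, rose by 0.18 ± 0.05 on the log2 scale.

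Of 14 other plakins and spectrin repeat proteins, 10 were tested, and at 300 g 2 were called higher and 8 lower in each comparison (41.4% to 41.8% and 40.1% to 40.6% of all genes), with a median of -0.60 in wait1min. UTRN, encoding utrophin, rose by 2.37 to 2.43 on the log2 scale at 300 g. In hypg15, 4 were called higher and 2 lower (25.4% and 27.9% of all genes), and after heat 0 higher and 2 lower (10.6% and 10.2%). PLEC, encoding the cytolinker plectin, was called higher in all 8 comparisons at 9 g, from 0.17 in hypg20s to 0.58 in hypg15, and fell after heat (-0.20 ± 0.04, edgeR adjusted p = 0.00287). UTRN lay between -0.50 and -0.03 at 9 g and was called in 2 of 8, and SPTB had -0.15 ± 0.10 after heat and was not called.

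Over the 10 group means of the 9 g experiment, a few genes had patterns most like those of MACF1, LMNA and LMNB1 among 8500 genes with at least 10 CPM. For MACF1 they were TUG1 (Pearson r 0.97), DDI2 (0.96) and VPS13B (0.96), for LMNA they were WDR55 (0.94), SH2D3C (0.94) and LZTS2 (0.94), and for LMNB1 they were GNL3 (1.00), CCDC43 (0.99) and HNRNPA2B1 (0.99). The genes closest to MACF1 had 41.8% to 44.4% GC, those closest to LMNB1 41.2% to 43.5%, and those closest to LMNA 53.8% to 63.3%. MACF1 itself has 46.9%, LMNB1 49.98% and LMNA 61.72%.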

How the data were processed

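RNA-Seq libraries of Jurkat T cells (60 at 9 g and 1 g, 20 at 300 g and heat) were prepared with depletion of ribosomal RNA and a stranded kit and sequenced paired-end. The authors deposited 1 table of raw counts per gene, made with Trim Galore 0.6.5, STAR 2.7.3a and featureCounts (2.0.3 in the file header, 2.0.1 in the submitters' processing notes, which also name DESeq2 1.28.1) on the Ensembl 104 annotation of GRCh38, counting read pairs on the reverse strand. Its other unit is bases, the summed exon length of a gene as deposited. The recorded command holds no option for read pairs that overlap several genes. The 3 lines of 1 broken record were left out, and 0 columns stayed unassigned.

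Two-group models were fitted over all genes with edgeR 4.0.16 (R 4.3.3, limma 3.58.1): TMM factors, filterByExpr with a minimum count of 10, quasi-likelihood F test, Benjamini-Hochberg adjustment over all genes tested, called at an adjusted p under 0.05 without a fold cutoff. Standard errors are the absolute log2 fold change over the square root of F. Of 3 differences of effects, each was a contrast in 1 model over the groups of its experiments. All 10 members passed the filter in every comparison. The fits were tested on simulated data. Alternatives were RLE factors, total counts only, no filter, DESeq2 1.42.0, all groups in 1 model, a lowess offset (span 0.3) for GC content or exon length, library 75 kept, and leaving out each library where a group holds 4 or 5. Leaving out libraries for 2 of the 3 differences was added after seeing the data. GC content came from GENCODE transcripts and was found for 58336 genes. Group means were correlated on log2(CPM + 0.5).

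The members and the other lists were chosen with earlier results of these data known. Named genes were the 10 members, the 2 genes per list with the largest mean log2 fold change in either direction at 9 g, at 300 g and after heat, and the 3 genes most like MACF1, LMNA and LMNB1. The values of 1 gene named by this rule are not reported here. Python 3.11.15 with numpy 2.4.6, pandas 2.3.3, scipy 1.17.1 and matplotlib 3.10.9 were used for tables and plots.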

Additional observations from a re-analysis of the deposited data

Results flagged for a closer look

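In 11 of 150 sets of libraries tested (each member in each group of 4 to 6), the highest or lowest library stood apart from the rest by Dixon's criterion, which chance alone meets in about 1 of 20 sets. In the 9 g experiment, library 25 of hypg5 stood apart in DST (8.32 CPM against 3.29 to 4.64 CPM in the others), SYNE2 (69.7 CPM against 29.0 to 43.7 CPM) and LMNB2 (320.4 CPM against 356 to 370.1 CPM). Library 77 of hypg15 had 397 CPM of MACF1, against 284 to 306 CPM in the other 4. DST reached 12.1 CPM in library 9 of Ctrl60 against 3.75 to 6.73 CPM, LMNA 2.71 CPM in library 7 of Ctrl60 against 1.99 to 2.26 CPM, and LMNB1 288 CPM in library 3 of Ctrl against 250.4 to 263 CPM. In the 300 g experiment, LMNB1 was low in library 55 of wait1min (327 CPM against 342 to 343 CPM) and in library 64 of wait15min (319 CPM against 342 to 347 CPM). LMNB2 was low in library 63 of wait15min (321 CPM against 328 to 329 CPM), and EMD in library 49 of Ctrl300g (63.0 CPM against 69.8 to 70.1 CPM).

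In 17 cases the effects of 2 treatments on a member differed in edgeR's test of the difference itself with TMM scaling. The effect of wait1min minus that of hypg5 was 3.57 for DST, 1.59 for MACF1, 0.87 for SYNE1, 3.19 for SYNE2, 0.15 for SUN1, -0.88 for SUN2, -0.60 for LMNA, -0.68 for LMNB2 and -0.82 for EMD on the log2 scale. Heat minus wait1min was -3.55 for DST, -1.75 for MACF1, -0.91 for SYNE1, -3.17 for SYNE2, 0.78 for SUN2, -0.24 for LMNB1, 0.50 for LMNB2 and 0.81 for EMD. With the exon length offset SYNE1 turned in both differences (-0.33 and 0.32) and SUN1 in the first (-0.44), and with the GC offset LMNB2 turned in the second (-0.054). The SUN1 call was lost without any 1 library of Ctrl300g (0.02 to 0.08).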

How the results depend on the processing

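No paired analysis was possible because the library numbers are unique over the whole series and the groups share no replicate number.

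The counts of called members at 300 g, after heat and for the differences of effects stayed within 1.5 times their value under all alternatives run. At 9 g they moved further, and in hypg75s the 2 calls (2 higher) became 2 others (2 lower) with the GC offset. Calls over all genes moved too, and stand below in parentheses as higher and lower. In hypg20s, 2 (1074 and 1384) became 1 with total counts only (1005 and 1030), the length offset (1400 and 1448) or the GC offset (952 and 745). With all groups in 1 model they became 0 (828 and 499). In hypg3, 5 (2740 and 3945 of 16194 tested) became 3 without a filter (1863 and 3950 of 33994 tested) and 2 with the GC offset (1849 and 2118). In hypg5, 0 (705 and 276) became 1 with the GC offset (977 and 1049). In hypg7, 2 (1091 and 1017 of 16438 tested) became 0 without a filter (770 and 767 of 34104 tested). They became 1 with the length offset (936 and 1086) or all groups in 1 model (1160 and 889). In hypg9, 0 (1849 and 1366) became 1 with RLE factors (1647 and 1588) or total counts only (2531 and 908). The count became 2 with DESeq2 (1601 and 1707) and 3 with the GC offset (2168 and 2462). In hypg15, 6 (4040 and 4437) became 2 with the GC offset (2842 and 2971) and 3 with library 75 kept (2694 and 2412). In hypg60, 2 (2791 and 2125) became 1 with total counts only (3364 and 1471) and 4 with all groups in 1 model (3712 and 3466). Leaving out 1 library gave 4 to 8 called members in hypg15, 8 to 9 in wait1min, 9 to 9 in wait4min, 8 to 9 in wait15min, 3 to 4 after heat, 0 to 0 between wait15min and wait1min, 8 to 9 for wait1min minus hypg5 and 8 to 8 for heat against wait1min. The cause of these moves was not tested.

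Values called under the TMM fit or the alternative turned in direction in these cases, all on the log2 scale. With the GC offset they were LMNB2 in hypg75s (-0.12), SUN2 (-0.035) and EMD (-0.060) in hypg15, LMNA at 300 g (0.032, 0.0066 and 0.11 in wait1min, wait4min and wait15min), LMNB1 at 300 g (0.11, 0.12 and 0.11), and SUN1 (-0.11) and LMNB2 (-0.054) in heat against wait1min. With the exon length offset they were SUN1 in hypg3 (0.11), SYNE1 at 300 g (-0.35, -0.32 and -0.41), SUN1 at 300 g (-0.40, -0.37 and -0.36), SYNE1 (-0.33) and SUN1 (-0.44) in wait1min minus hypg5, and SYNE1 (0.32) in heat against wait1min. With total counts only they were LMNB1 at 300 g (0.19, 0.22 and 0.21) and SUN1 (-0.12) in heat against wait1min. With library 75 kept, which has no counts on the X chromosome, EMD in hypg15 had -0.11. Values called in neither fit changed sign 18 times with the GC offset, 15 when 1 library was left out, 6 with the exon length offset, 6 with total counts only, 5 with all groups in 1 model, 2 without a filter and 1 each with RLE factors, DESeq2 and library 75 kept. The counts of LMNA, at 44 to 130 per library, and of DST, at 54 or more, limit what can be detected for these genes.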
